A study of Homo sapiens with 12 samples.

Results

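The unfolded protein response and its ATF4 programme were followed in BT549 cells through 39 genes, a list of known components. The list was chosen with earlier results of these data known. Each gene was read from the transcript clusters that carry it as their only symbol in the probe annotation. A transcript cluster is a set of probes summarised into 1 value per array. All 39 genes were measured, among 17958 genes on the array. They fell into 16 genes for protein folding in the endoplasmic reticulum (ER), 4 genes for ER-associated degradation (ERAD), 5 sensors and transcription factors, 9 stress genes downstream of ATF4, and 5 genes for serine, glycine and asparagine synthesis. BT549 is a breast cancer cell line without ERα, progesterone receptor or HER2 amplification, and the study addressed ERβ2, a splice variant of estrogen receptor β with its own C-terminus. Cells were transfected with siRNA against ERβ2 or with a control siRNA and harvested 48 h later, or with a plasmid carrying FLAG-tagged ERβ2 cDNA or the empty pcDNA3 vector (EV) and harvested 24 h later. All were transient transfections of 1 cell line, with 3 arrays per group that the design text calls biological replicates, 12 in all.

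When unfolded proteins accumulate in the ER, 3 membrane sensors respond. IRE1, encoded by ERN1, splices the XBP1 mRNA into the form that encodes an active transcription factor, and ATF6 is cut so that its cytosolic part enters the nucleus. Both act on genes for chaperones, disulfide exchange and ERAD. The third sensor, PERK, encoded by EIF2AK3, phosphorylates the translation factor eIF2α, which lowers general translation but favours ATF4, a transcription factor for stress and amino acid genes. Other kinases, such as PKR and GCN2, phosphorylate eIF2α without ER stress, so the ATF4 genes can move without the folding genes.

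These routes leave known marks in promoters, which are shown for members described later. The ER stress response element (ERSE) is CCAAT and CCACG spaced 9 bases apart, ERSE-II is ATTGG and CCACG spaced 1 base apart, the unfolded protein response element (UPRE) is TGACGTGG, and the C/EBP-ATF response element (CARE) bound by ATF4 is TGATGNAA. They were searched on both strands in windows from 250 bases before to 50 bases after each RefSeq start (assembly GRCh38.p14), which were given for 36 of the 39 members and for 27305 genes in all. Sequences read 5′ to 3′ along the gene, with the motif and its spacer in capitals.

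HSPA5 (ERSE, chr9:125241376-125241424, minus strand): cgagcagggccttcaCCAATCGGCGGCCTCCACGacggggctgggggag
PDIA6 (ERSE, chr2:10812838-10812886, minus strand): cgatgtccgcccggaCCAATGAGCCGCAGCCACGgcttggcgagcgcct
CRELD2 (ERSE on the opposite strand, chr22:49918539-49918587, plus strand): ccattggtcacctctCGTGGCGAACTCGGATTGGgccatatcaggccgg
XBP1 (ERSE, chr22:28800588-28800636, minus strand): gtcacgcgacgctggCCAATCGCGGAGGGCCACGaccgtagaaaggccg
SDF2L1 (ERSE-II on the opposite strand, chr22:21642099-21642139, plus strand): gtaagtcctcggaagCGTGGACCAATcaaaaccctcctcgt
HERPUD1 (ERSE-II, chr16:56932010-56932050, plus strand): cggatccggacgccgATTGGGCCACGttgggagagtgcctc
CHAC1 (CARE on the opposite strand, chr15:40953247-40953284, plus strand): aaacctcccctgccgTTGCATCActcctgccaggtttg
ASNS (CARE, chr7:97872454-97872491, minus strand): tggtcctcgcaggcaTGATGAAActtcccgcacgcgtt

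ERSE was found for 8 of the 36 members (22.2%), against 25 of all 27305 genes (0.0916%). The 8 were the folding genes HSPA5, HSP90B1, PDIA6, CRELD2, CALR, CANX and ERO1B, which are 7 of the 15 folding genes with a window, and XBP1. ERSE-II was found for 3 members, SDF2L1, HYOU1 and HERPUD1, and for 0.0696% of all genes. UPRE was found for HYOU1, where 1 match shares its last bases with an ERSE-II match, and for 0.927% of all genes. CARE was found for HERPUD1, ATF3, CHAC1 and ASNS, against 4.46% of all genes. None of the 9 ATF4 stress genes held ERSE or ERSE-II and 2 of them held CARE, none of the 15 folding genes held CARE, and the ERAD gene HERPUD1 held both ERSE-II and CARE. A match describes letters in a window and not a bound site.

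The values are log2 signals normalised between arrays by RMA, with array medians of 5.04 to 5.14 and a mean correlation of 0.997 to 0.999 of each array with the others of its group. Differences are on the log2 scale, with a standard error (SE) from limma, and a gene rose or fell where the p from limma, adjusted by Benjamini-Hochberg over all 17958 genes, was 0.1 or less. The 5 mesenchymal markers (VIM, FN1, ZEB1, CDH2 and SPARC) lay between 8.8 and 12.32 on the 12 arrays. Of the 6 luminal and epithelial markers ESR1, PGR, CDH1 and EPCAM lay at 4.6 or below, KRT19 at 4.45 to 6.09 and ERBB2 at 7.85 to 8.27. The leukocyte and endothelial markers PTPRC and PECAM1 lay at 4.08 or below. Some markers moved with the groups: FN1 rose by 0.42 and CDH1 by 0.17 (adjusted p = 0.0997 from limma) after ERβ2 siRNA, and in EV against control siRNA FN1 rose by 0.63, CDH2 by 0.40 and ZEB1 by 0.21 while KRT19 fell by 0.95. The part of these shifts in the members' changes was not tested. ESR2, the gene of ERβ in all its isoforms, read 4.12, 3.99 and 3.8 in ERβ2 siRNA arrays and 4.03, 3.88 and 4.05 in control siRNA arrays, so the array gives no check of the siRNA labels. The paper reports the fall of ERβ2 mRNA by qPCR and does not state which of its siRNA sets the arrays used. Effects of the siRNA other than loss of ERβ2 were not tested here. The word knockdown below names the contrast of ERβ2 siRNA with control siRNA alone. With the ERβ2 plasmid it read 4.35, 4.72 and 4.37, all above the EV arrays at 4.08, 3.93 and 4.01, but the change did not pass the test.

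After ERβ2 siRNA, genes of ER folding and ERAD rose together: 16 of these 20 genes rose and 0 fell, with a median log2 change of 0.37. SDF2L1 rose 2.46-fold, CRELD2 and DNAJC3 1.81-fold each and ERO1A 1.53-fold. Of all 39 members 27 rose and 3 fell, against 18.3% and 17.5% of all genes, whose median change was −0.03. Over all genes that is 3279 higher and 3150 lower, or 4035 and 1968 where each array was centred on its median. All 39 members had a mean signal above 5. Without dim genes (mean under 5), 3546 of 11530 genes were higher and 2601 lower, with a median of 0.02. Both shares of these 11530 genes were larger than the 18.3% and 17.5% of all genes. At 1.5-fold or more 5 members rose and none fell, where 3.25% of all genes were higher and 1.26% lower. Of the members, 34 had values in ERβ2 siRNA arrays that did not overlap those of control siRNA arrays, against 42.4% of all genes. Since each array reads a whole culture, fewer cells that make an mRNA and less of it per cell cannot be told apart.

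**Figure D1:**
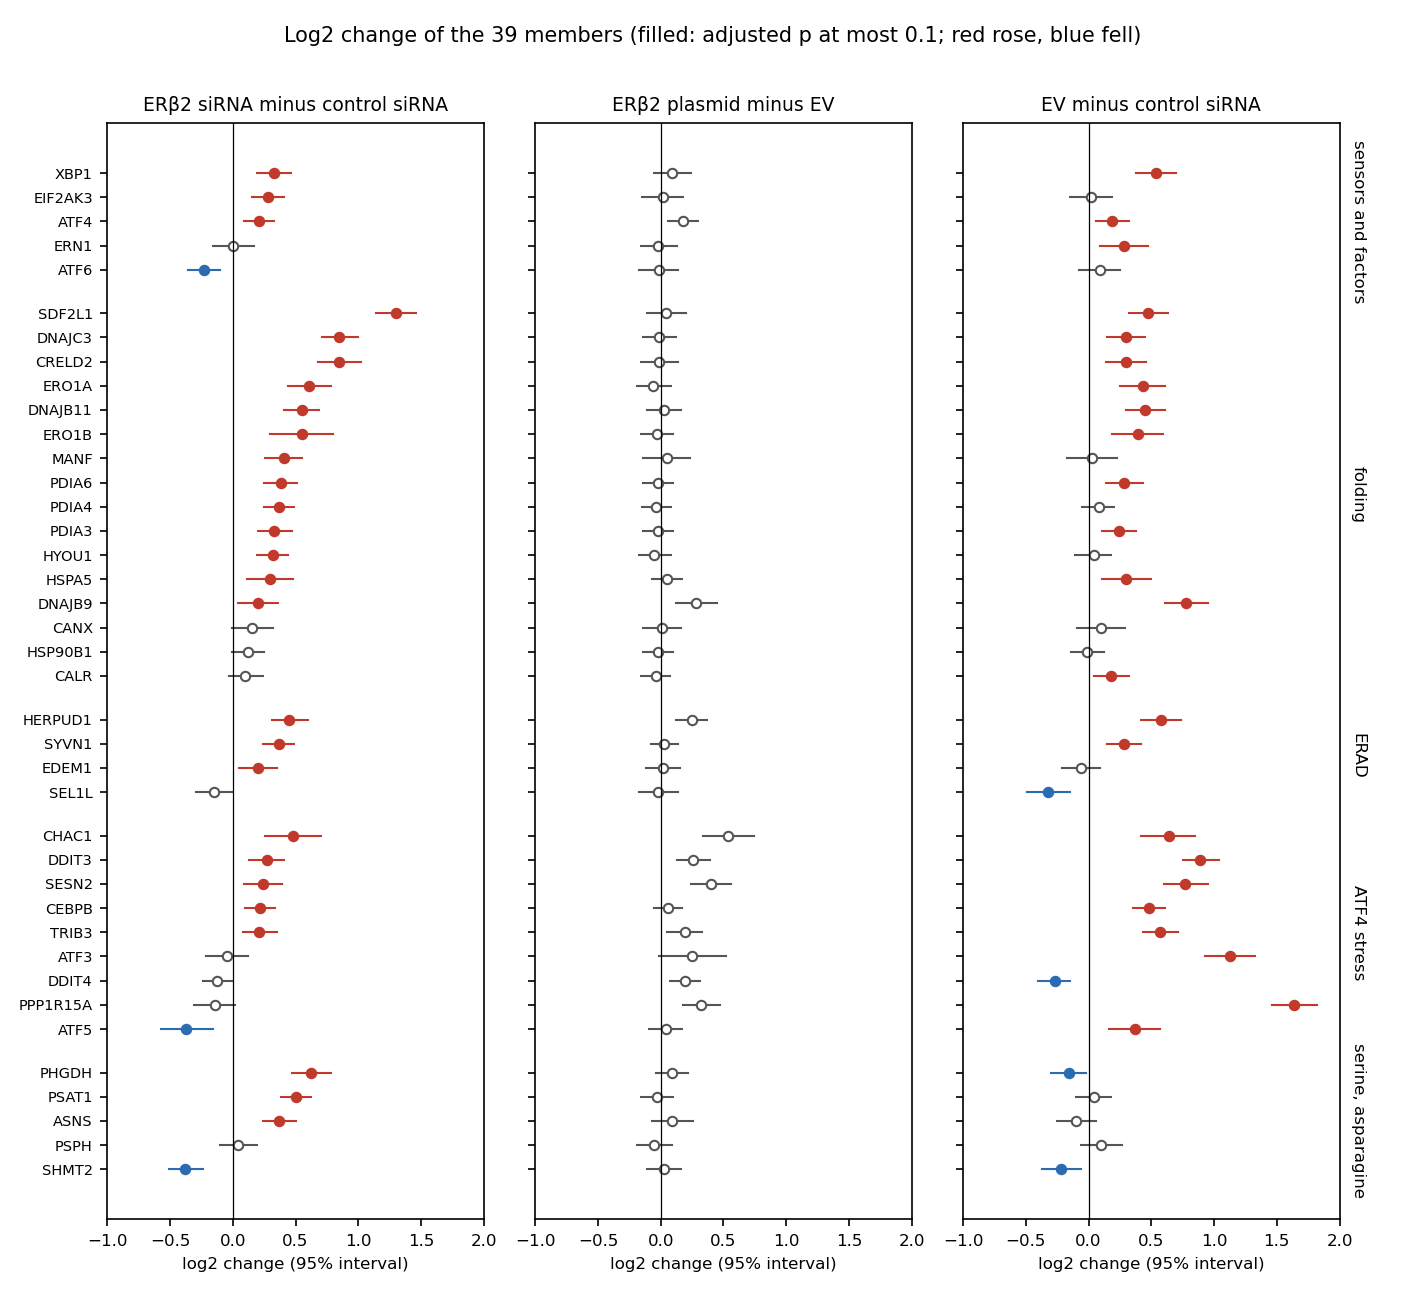
Log2 change of each member with its 95% confidence interval, for ERβ2 siRNA minus control siRNA (left), ERβ2 plasmid minus EV (middle) and EV minus control siRNA (right), 3 arrays per group. Filled points passed the test, red where the gene rose and blue where it fell. In the left panel 27 points are red and 3 blue, in the middle panel none is filled, and in the right panel 24 are red and 4 blue.

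Among the sensors and factors, 3 rose, 1 fell and 1 did not pass after ERβ2 siRNA. XBP1 read 9.78, 9.72 and 9.71 in ERβ2 siRNA arrays, against 9.48, 9.41 and 9.34 in control siRNA arrays, a rise of 0.33 (SE 0.06, adjusted p = 0.00417 from limma). The cluster reads the gene as a whole and does not separate spliced from unspliced XBP1 mRNA. EIF2AK3, the gene of PERK, read 7.56, 7.49 and 7.53 in ERβ2 siRNA arrays and 7.29, 7.26 and 7.18 in control siRNA arrays, without overlap (0.28, SE 0.06, adjusted p = 0.00674 from limma). ATF4 read 10.48, 10.5 and 10.44 in ERβ2 siRNA arrays and 10.28, 10.29 and 10.22 in control siRNA arrays (0.21, SE 0.05, adjusted p = 0.0202 from limma). A second ATF4 cluster changed by 0.17 and did not pass (adjusted p = 0.174), and ATF4 is controlled mainly in translation, which the arrays do not measure.

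ATF6 was the sensor that fell. Its values were 10, 10.08 and 10.11 in ERβ2 siRNA arrays, against 10.28, 10.33 and 10.27 in control siRNA arrays, a change of −0.23 (SE 0.06, adjusted p = 0.0169 from limma). ERN1, the gene of IRE1, read 6.29, 6.35 and 6.33 in ERβ2 siRNA arrays and 6.37, 6.18 and 6.41 in control siRNA arrays. These groups overlapped, and the 95% interval of the change was −0.16 to 0.17. The mRNAs of the 3 sensors thus moved in different ways, EIF2AK3 higher and ATF6 lower, while that of ERN1 did not pass the test.

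Of the 16 folding genes 13 rose, none fell, and all 16 had a change above 0 after ERβ2 siRNA, with a median of 0.38. SDF2L1, an ER protein that binds the co-chaperone DNAJB11, had the largest change of the 39 members. It read 8.51, 8.34 and 8.28 in ERβ2 siRNA arrays and 7.11, 7.04 and 7.08 in control siRNA arrays, so the lowest siRNA value was above the highest control value by far more than the spread within a group (1.30, SE 0.07, adjusted p = 1.2e-05 from limma). DNAJB11 itself, also called ERdj3, read 10.21, 10.14 and 10.19 in ERβ2 siRNA arrays and 9.54, 9.69 and 9.66 in control siRNA arrays (0.55, SE 0.06, adjusted p = 3.3e-04 from limma). DNAJC3, a co-chaperone of the Hsp70 protein BiP known also as P58IPK, read 9.26, 9.37 and 9.35 in ERβ2 siRNA arrays and 8.5, 8.54 and 8.38 in control siRNA arrays (0.85, SE 0.06, adjusted p = 5.0e-05 from limma). These 3 genes work with BiP, and none of them overlapped between groups.

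CRELD2, an ER-resident protein that can be secreted, read 8.42, 8.17 and 8.24 in ERβ2 siRNA arrays and 7.47, 7.38 and 7.42 in control siRNA arrays (0.85, SE 0.07, adjusted p = 9.3e-05 from limma). ERO1A, the oxidase that recharges protein disulfide isomerases, read 10.86, 10.91 and 10.92 in ERβ2 siRNA arrays, against 10.13, 10.38 and 10.34 in control siRNA arrays (0.61, SE 0.07, adjusted p = 5.3e-04 from limma). Its paralog ERO1B read 5.34, 5.23 and 5.58 in ERβ2 siRNA arrays and 5.03, 4.75 and 4.73 in control siRNA arrays, a change of 0.55 with a wider SE of 0.11 (adjusted p = 0.00678 from limma). Both oxidases rose. The isomerases PDIA3, PDIA4 and PDIA6, the BiP exchange factor HYOU1 and the secreted stress factor MANF rose by smaller amounts, from 0.32 (HYOU1) to 0.41 (MANF), each without overlap between groups.

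HSPA5 is the gene of BiP, the most used marker of the response, and rose 1.23-fold. It read 12.13, 12.15 and 12.18 in ERβ2 siRNA arrays and 11.68, 11.92 and 11.97 in control siRNA arrays (0.30, SE 0.08, adjusted p = 0.0252 from limma). Control siRNA replicate 1 lay lowest of the 12 arrays, and over the 18 alternative settings and left-out arrays the change ranged from 0.21 to 0.35. DNAJB9, the BiP co-chaperone ERdj4, read 6.72, 6.73 and 6.93 in ERβ2 siRNA arrays, against 6.57, 6.56 and 6.65 in control siRNA arrays. Its change of 0.20 had an adjusted p of 0.0713 from limma and lost the call when ERβ2 siRNA replicate 3, control siRNA replicate 1 or control siRNA replicate 2 was left out (adjusted p = 0.222, 0.140 and 0.168). The 3 folding genes that did not pass were HSP90B1, the ER form of Hsp90 (0.12, adjusted p = 0.151 from limma), and the lectin chaperones CANX (0.15, adjusted p = 0.159) and CALR (0.10, adjusted p = 0.230). HSP90B1 did not overlap between groups, whereas CANX and CALR did. All 3 hold ERSE. Of the 11 members with ERSE or ERSE-II 8 rose after ERβ2 siRNA and 3 did not pass, beside 27 of all 39 members that rose (69.2%). Members with these motifs thus rose about as often as all members.

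**Figure D2:**
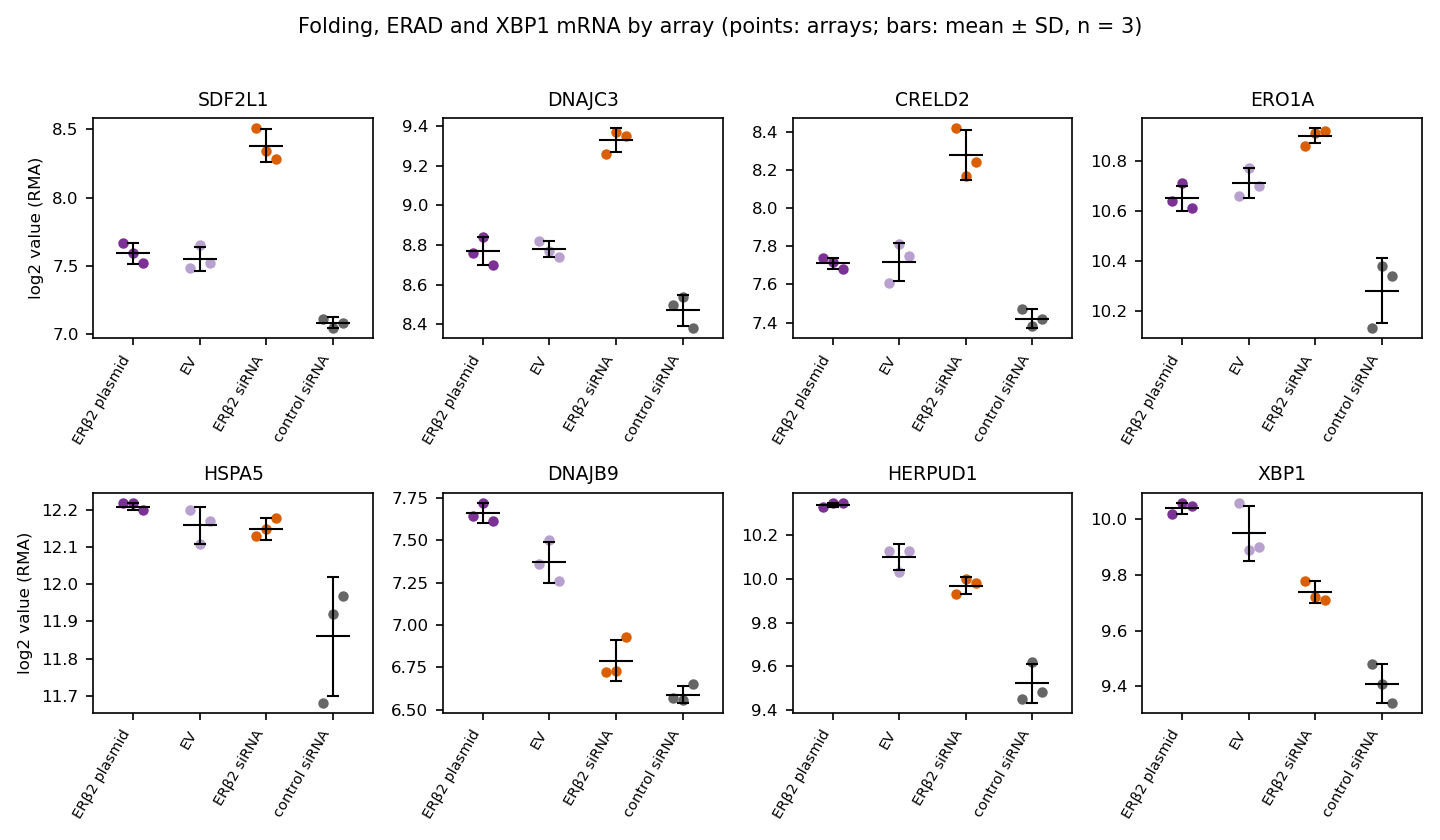
Log2 value on each array (points) with the mean and SD of 3 arrays per group (bars) for 6 folding genes, the ERAD gene HERPUD1 and XBP1, in ERβ2 plasmid, EV, ERβ2 siRNA and control siRNA cells. The vertical axes differ between genes and do not start at 0. For SDF2L1, DNAJC3, CRELD2 and ERO1A the ERβ2 siRNA arrays are highest and the control siRNA arrays lowest, and for DNAJB9, HERPUD1 and XBP1 both plasmid groups lie above both siRNA groups.

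Of the 4 ERAD genes 3 rose after ERβ2 siRNA. HERPUD1, which organises the ubiquitin ligase complex of the ER membrane, read 9.93, 10 and 9.98 in ERβ2 siRNA arrays and 9.45, 9.62 and 9.48 in control siRNA arrays (0.45, SE 0.06, adjusted p = 0.00111 from limma). SYVN1, the ligase HRD1 of that complex, read 8.68, 8.62 and 8.62 in ERβ2 siRNA arrays and 8.32, 8.23 and 8.27 in control siRNA arrays (0.37, SE 0.06, adjusted p = 0.00159 from limma). EDEM1, which recognises misfolded glycoproteins, read 8.44, 8.27 and 8.44 in ERβ2 siRNA arrays and 8.23, 8.17 and 8.16 in control siRNA arrays. Its change of 0.20 had an adjusted p of 0.0556 from limma. The call was lost without control siRNA replicate 2 or 3 or without ERβ2 siRNA replicate 1 or 3, with adjusted p from 0.131 to 0.173, and a second EDEM1 cluster changed by 0.15 (adjusted p = 0.330). SEL1L, the partner of HRD1, read 9.07, 9.01 and 9.14 in ERβ2 siRNA arrays and 9.28, 9.16 and 9.23 in control siRNA arrays, and was the single gene of the 20 with a change below 0 (−0.15, adjusted p = 0.105 from limma).

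Of the 9 ATF4 stress genes 5 rose and 1 fell after ERβ2 siRNA, with a median change of 0.21, and none reached 1.5-fold. CHAC1, which breaks down glutathione and holds CARE in its promoter, read 7.12, 6.81 and 7 in ERβ2 siRNA arrays and 6.57, 6.34 and 6.58 in control siRNA arrays (0.48, SE 0.10, adjusted p = 0.00682 from limma). DDIT3, the gene of the pro-apoptotic factor CHOP, read 8.74, 8.86 and 8.81 in ERβ2 siRNA arrays and 8.6, 8.5 and 8.5 in control siRNA arrays (0.27, SE 0.06, adjusted p = 0.0110 from limma). SESN2, the stress protein Sestrin 2, read 7.83, 7.7 and 7.85 in ERβ2 siRNA arrays and 7.57, 7.48 and 7.61 in control siRNA arrays (0.24, SE 0.07, adjusted p = 0.0261 from limma). These rises were small but larger than the spread within groups. The transcription factor gene CEBPB read 11.08, 11.03 and 11.04 in ERβ2 siRNA arrays and 10.86, 10.83 and 10.8 in control siRNA arrays (0.22, SE 0.05, adjusted p = 0.0150 from limma), and the pseudokinase gene TRIB3 rose by 0.21.

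Not all ATF4 stress genes went the same way. ATF5, a transcription factor translated by the same eIF2α-dependent means as ATF4, read 7.07, 7.09 and 7.11 in ERβ2 siRNA arrays, against 7.62, 7.26 and 7.49 in control siRNA arrays (−0.37, SE 0.09, adjusted p = 0.0157 from limma). Its control arrays were spread wider than its siRNA arrays, and no values overlapped. PPP1R15A, whose product GADD34 brings phosphatase to eIF2α, read 8.06, 8.02 and 7.99 in ERβ2 siRNA arrays and 8.31, 8.1 and 8.09 in control siRNA arrays, and it did not pass (−0.14, adjusted p = 0.175 from limma). ATF3, a stress transcription factor, read 5.27, 5.14 and 5.28 in ERβ2 siRNA arrays and 5.26, 5.18 and 5.39 in control siRNA arrays (−0.05, adjusted p = 0.672 from limma). The mTORC1 inhibitor DDIT4 had a change of −0.13 (adjusted p = 0.102 from limma).

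Of the 5 synthesis genes 3 rose and 1 fell after ERβ2 siRNA. PHGDH, the first enzyme of serine synthesis, read 9.9, 9.69 and 9.83 in ERβ2 siRNA arrays and 9.22, 9.15 and 9.18 in control siRNA arrays, a 1.54-fold rise (0.62, SE 0.07, adjusted p = 2.8e-04 from limma). PSAT1, the next enzyme, read 10.12, 10.08 and 10.12 in ERβ2 siRNA arrays and 9.61, 9.62 and 9.59 in control siRNA arrays (0.50, SE 0.05, adjusted p = 2.2e-04 from limma). ASNS, asparagine synthetase, which holds CARE, read 7.55, 7.61 and 7.62 in ERβ2 siRNA arrays and 7.29, 7.19 and 7.2 in control siRNA arrays (0.37, SE 0.06, adjusted p = 0.00186 from limma). These 3 rose without overlap. SHMT2, which turns serine into glycine in mitochondria, fell and read 10.41, 10.36 and 10.42 in ERβ2 siRNA arrays, against 10.85, 10.7 and 10.77 in control siRNA arrays (−0.38, SE 0.06, adjusted p = 0.00211 from limma). PSPH, the last enzyme of serine synthesis, read 7.87, 7.78 and 7.8 in ERβ2 siRNA arrays and 7.87, 7.75 and 7.7 in control siRNA arrays and did not pass (0.04, adjusted p = 0.653 from limma). A second PSPH cluster changed by 0.25 (adjusted p = 0.0495), so the clusters of this gene disagree.

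Further genes of the same processes were taken from wider lists. Like the members, they were chosen with earlier results of these data known, so their counts are no independent test. Of 47 measured genes of ER folding, translocation and ERAD (52 listed), 26 rose and 4 fell after ERβ2 siRNA (55.3% and 8.51%, against 18.3% and 17.5% of all genes), with a median of 0.24. SIL1, an exchange factor of BiP, rose by 0.79 (SE 0.07), the co-chaperone gene DNAJC1 by 0.72 (SE 0.05) and the ER prolyl isomerase gene FKBP7 by 0.71 (SE 0.06). SRPRA, a subunit of the receptor for the signal recognition particle, had a change of −0.67 (SE 0.05) and was the only gene of this list to fall by 1.5-fold. Of 23 measured genes in a wider list of ATF4 targets (24 listed), 10 rose and 1 fell (43.5% and 4.35%), with a median of 0.13. There VLDLR, a lipoprotein receptor, rose by 1.38 (SE 0.06), the stress cytokine gene GDF15 by 1.11 (SE 0.06), the cystine transporter gene SLC7A11 by 0.86 (SE 0.07) and CBS, an enzyme of cysteine synthesis, by 0.84 (SE 0.07). Of 18 genes for eIF2α kinases, eIF2 and its partners, 5 rose and 4 fell (27.8% and 22.2%, against 18.3% and 17.5% of all genes), with a median of 0.05. These shares were no higher than those found without dim genes (3546 and 2601 of 11530). EIF2B2, a subunit of the exchange factor of eIF2, had the largest change, −0.72 (SE 0.05, adjusted p = 4.1e-05 from limma), and read 8.8, 8.83 and 8.85 in ERβ2 siRNA arrays against 9.56, 9.52 and 9.56 in control siRNA arrays. PPP1CC, a catalytic subunit of protein phosphatase 1, had a change of −0.27, and the kinase genes EIF2AK4 (GCN2) and EIF2AK2 (PKR) rose by 0.27 and 0.25.

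With the ERβ2 plasmid against EV, 0 of the 39 members rose and 0 fell, where 0.0111% of all genes passed as higher (2 genes) and 0% as lower. At an unadjusted p under 0.05 from limma there were 9 members, against 1260 of all 17958 genes. The values of 12 members did not overlap between groups, 11 of them higher with the ERβ2 plasmid, against 12% of all genes in either direction. The median change was −0.01 for the folding genes and 0.25 for the 9 ATF4 stress genes, beside 0.00 for all genes. All 9 ATF4 stress genes had a change above 0, from 0.04 to 0.54, and 7 of them did not overlap.

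CHAC1 had the smallest p of the members with the ERβ2 plasmid. It read 7.56, 7.69 and 7.77 with the ERβ2 plasmid and 7.07, 7.29 and 7.04 with EV (0.54, SE 0.09, adjusted p = 0.250 from limma). SESN2 read 8.72, 8.71 and 8.75 with the ERβ2 plasmid and 8.37, 8.42 and 8.19 with EV (0.40, SE 0.07, adjusted p = 0.325 from limma). PPP1R15A read 10.06, 10.21 and 10.12 with the ERβ2 plasmid and 9.88, 9.78 and 9.76 with EV (0.32, SE 0.06, adjusted p = 0.424 from limma). In each of these genes the plasmid arrays lay above all EV arrays, yet no change passed over all genes. Values for DDIT3 were 9.65, 9.72 and 9.7 with the ERβ2 plasmid and 9.49, 9.37 and 9.42 with EV, and for HERPUD1 10.33, 10.35 and 10.35 with the ERβ2 plasmid and 10.13, 10.03 and 10.13 with EV. Their changes were 0.26 and 0.25 (adjusted p = 0.449 each from limma). With an intensity trend and a robust prior in limma 6 members passed as higher (CHAC1, PPP1R15A, SESN2, HERPUD1, DDIT3 and DDIT4, adjusted p from 0.0314 to 0.0875), and with the t-test of the methods none did.

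Of the sensors and factors, ATF4 read 10.58, 10.67 and 10.65 with the ERβ2 plasmid and 10.44, 10.45 and 10.47 with EV, without overlap (0.18, SE 0.05, adjusted p = 0.563 from limma). XBP1 read 10.02, 10.06 and 10.05 with the ERβ2 plasmid and 10.06, 9.89 and 9.9 with EV (0.09, adjusted p = 0.816 from limma). Like XBP1, the other 3 overlapped between groups, with changes from −0.02 to 0.02. EIF2AK3 read 7.26, 7.33 and 7.25 with the ERβ2 plasmid and 7.19, 7.4 and 7.2 with EV, ERN1 6.59, 6.56 and 6.59 with the ERβ2 plasmid and 6.57, 6.51 and 6.71 with EV, and ATF6 10.34, 10.41 and 10.35 with the ERβ2 plasmid and 10.44, 10.25 and 10.45 with EV.

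**Figure D3:**
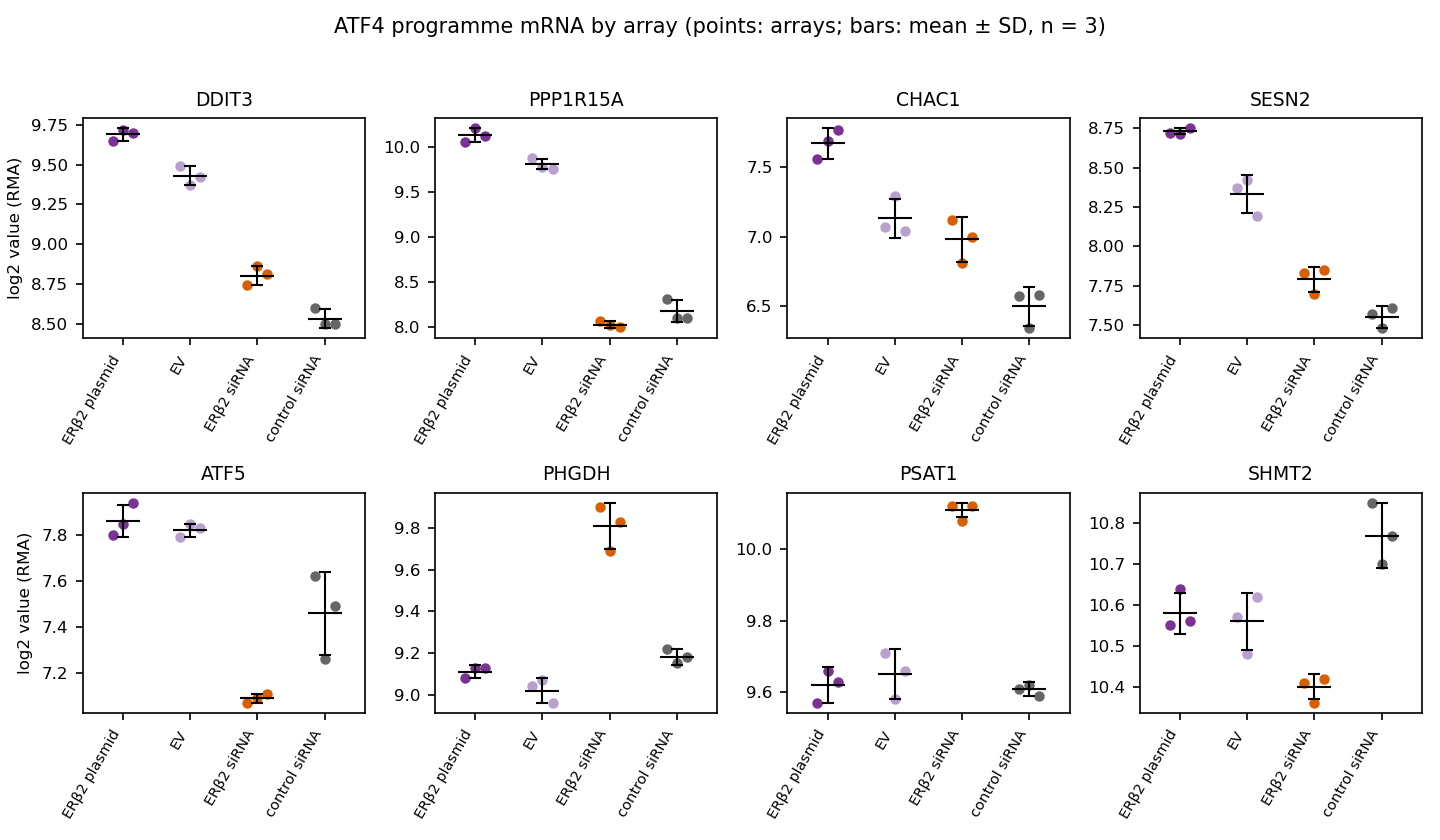
Log2 value on each array (points) with the mean and SD of 3 arrays per group (bars) for 5 ATF4 stress genes and 3 synthesis genes, in ERβ2 plasmid, EV, ERβ2 siRNA and control siRNA cells. The vertical axes differ between genes and do not start at 0. DDIT3, PPP1R15A, CHAC1 and SESN2 have the highest mean with the ERβ2 plasmid and the next highest with EV, whereas PHGDH and PSAT1 are highest with ERβ2 siRNA.

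The knockdown effect (ERβ2 siRNA minus control siRNA) and the plasmid effect (ERβ2 plasmid minus EV) were then compared in 1 fit over 12 arrays. Their difference was above 0 for 20 members that passed and below 0 for 5, against 15% and 11.3% of all genes. Without dim genes 2984 of 11530 genes passed as higher and 1900 as lower. Of the folding genes 12 of 16 passed as higher and none as lower, with a median difference of 0.38. SDF2L1 had a knockdown effect of 1.30 and a plasmid effect of 0.04, a difference of 1.26 (SE 0.10, adjusted p = 3.5e-06 from limma). DNAJC3 had 0.85 and −0.01, a difference of 0.86 (SE 0.08, adjusted p = 1.9e-05 from limma). For CRELD2 the effects were likewise 0.85 and −0.01, with a difference of 0.86 (SE 0.10, adjusted p = 6.9e-05 from limma), and for ERO1A 0.61 and −0.06, with a difference of 0.67 (SE 0.09, adjusted p = 3.0e-04 from limma). The 95% intervals of the plasmid effect were −0.11 to 0.20 for SDF2L1, −0.14 to 0.12 for DNAJC3, −0.16 to 0.14 for CRELD2 and −0.19 to 0.08 for ERO1A. All 4 intervals hold 0 and end below the knockdown effect of the same gene.

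The ATF4 stress genes gave another picture in this comparison: 1 passed as higher, 3 as lower and 5 did not pass. DDIT3 had a knockdown effect of 0.27 and a plasmid effect of 0.26, with a 95% interval of the difference from −0.16 to 0.17, and CHAC1 had 0.48 and 0.54, with an interval from −0.36 to 0.24. PPP1R15A had −0.14 and 0.32, a difference of −0.47 (SE 0.10, adjusted p = 0.00412 from limma). DDIT4 had −0.13 and 0.19 (difference −0.31, adjusted p = 0.00372) and ATF5 −0.37 and 0.04 (difference −0.41, adjusted p = 0.0197). In the synthesis list PSAT1 and PHGDH had a difference of 0.53 each, ASNS of 0.27 and SHMT2 of −0.40, and all 4 passed. PSPH did not pass (0.09, adjusted p = 0.474 from limma), whereas its second cluster had a difference of 0.46 (adjusted p = 0.0268 from limma). Among sensors and factors EIF2AK3 (0.27) and XBP1 (0.23) passed as higher and ATF6 (−0.22) as lower. These 3 calls and those for HSPA5, HERPUD1, CEBPB and ASNS had adjusted p between 0.0512 and 0.0994 and were lost in many of the 23 other settings and left-out arrays. CEBPB passed in 7 of them, ATF6 in 8, HSPA5 in 10, HERPUD1 in 12, XBP1 and ASNS in 16 and EIF2AK3 in 17. Without control siRNA replicate 1 the difference for HSPA5 was 0.15, against 0.24 (adjusted p = 0.138), and for ATF6 it was −0.15 without EV replicate 2, against −0.22 (adjusted p = 0.174).

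The controls were set against each other to describe the baseline of each experiment. EV and control siRNA cells differed in plasmid against siRNA, transfection reagent, plating density and time (24 h and 48 h) at once, so these cannot be told apart. This comparison shares the control siRNA arrays with the knockdown. In EV cells 24 members rose and 4 fell, against 19.2% and 22.4% of all genes. Without dim genes 3350 of 11530 genes were higher and 3026 lower. At 1.5-fold or more 6 members rose, where 5.57% of all genes were higher and 1.3% lower. The values of 29 members did not overlap between groups, against 47.2% of all genes. The lists stood in another order than in the knockdown. The median change was 0.64 for the ATF4 stress genes, 0.29 for the folding genes and −0.10 for the synthesis genes, beside −0.06 for all genes.

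Of the 9 ATF4 stress genes 8 rose in EV cells and 1 fell. PPP1R15A read 9.88, 9.78 and 9.76 in EV arrays and 8.31, 8.1 and 8.09 in control siRNA arrays, a 3.12-fold rise (1.64, SE 0.08, adjusted p = 1.7e-06 from limma). ATF3 read 6.47, 6.51 and 6.24 in EV arrays and 5.26, 5.18 and 5.39 in control siRNA arrays (1.13, SE 0.09, adjusted p = 3.9e-05 from limma). DDIT3 read 9.49, 9.37 and 9.42 in EV arrays and 8.6, 8.5 and 8.5 in control siRNA arrays (0.89, SE 0.06, adjusted p = 2.1e-05 from limma). These 3 genes were far outside the spread of either group. SESN2 rose by 0.77, CHAC1 by 0.64, TRIB3 by 0.57, CEBPB by 0.48 and ATF5 by 0.37. DDIT4 had a change of −0.27 (SE 0.06, adjusted p = 0.00661 from limma).

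Of the 20 folding and ERAD genes 13 rose in EV cells, 1 fell and 6 did not pass, with a median of 0.28. DNAJB9 was the only folding gene at 1.5-fold, and read 7.36, 7.5 and 7.26 in EV arrays and 6.57, 6.56 and 6.65 in control siRNA arrays (0.78, SE 0.08, adjusted p = 1.2e-04 from limma). SDF2L1 read 7.48, 7.65 and 7.52 in EV arrays and 7.11, 7.04 and 7.08 in control siRNA arrays (0.47, SE 0.07, adjusted p = 9.5e-04 from limma). DNAJB11 read 10.08, 10.14 and 10.03 in EV arrays and 9.54, 9.69 and 9.66 in control siRNA arrays (0.45, SE 0.07, adjusted p = 0.00121 from limma). These were the folding genes with the largest changes, and none overlapped between groups. HERPUD1, at 10.13, 10.03 and 10.13 in EV arrays and 9.45, 9.62 and 9.48 in control siRNA arrays, rose by 0.58 (SE 0.07, adjusted p = 3.8e-04 from limma). SYVN1, at 8.57, 8.56 and 8.54 in EV arrays and 8.32, 8.23 and 8.27 in control siRNA arrays, rose by 0.28. SEL1L, at 8.81, 9.03 and 8.87 in EV arrays and 9.28, 9.16 and 9.23 in control siRNA arrays, fell by 0.32 (SE 0.07, adjusted p = 0.0122 from limma). The HRD1 ligase and its partner thus moved in opposite directions, and EDEM1 did not pass (−0.06). HYOU1, MANF, PDIA4, HSP90B1 and CANX, with changes from −0.01 to 0.10, did not pass. Of the 11 members with ERSE or ERSE-II 8 rose and none fell, and of the 4 with CARE 3 rose and none fell. Beside them, 24 of all 39 members rose (61.5%) and 4 fell. The part of the motifs was not tested.

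The sensors and factors XBP1, ERN1 and ATF4 rose in EV cells, and EIF2AK3 and ATF6 did not pass. XBP1 read 10.06, 9.89 and 9.9 in EV arrays and 9.48, 9.41 and 9.34 in control siRNA arrays (0.54, SE 0.07, adjusted p = 7.0e-04 from limma). ATF4 read 10.44, 10.45 and 10.47 in EV arrays and 10.28, 10.29 and 10.22 in control siRNA arrays (0.19, SE 0.06, adjusted p = 0.0345 from limma), a call lost without control siRNA replicate 3 (adjusted p = 0.115) or EV replicate 3 (adjusted p = 0.104). ERN1 read 6.57, 6.51 and 6.71 in EV arrays and 6.37, 6.18 and 6.41 in control siRNA arrays (0.28, SE 0.08, adjusted p = 0.0354 from limma), a call lost without control siRNA replicate 2 (adjusted p = 0.114) or EV replicate 3 (adjusted p = 0.112). For ERN1 it was also lost with the t-test of the methods (adjusted p = 0.115) and with quantile normalization again, which gave a change of 0.15 (adjusted p = 0.208). The calls for ERN1 and for the ATF4 cluster used were thus not stable. A second ATF4 cluster rose by 0.37 in EV cells (SE 0.07, adjusted p = 0.00412 from limma). EIF2AK3 read 7.19, 7.4 and 7.2 in EV arrays and 7.29, 7.26 and 7.18 in control siRNA arrays (0.02), and ATF6 read 10.44, 10.25 and 10.45 in EV arrays and 10.28, 10.33 and 10.27 in control siRNA arrays (0.09), so both overlapped between groups.

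None of the 5 synthesis genes rose in EV cells. SHMT2 read 10.57, 10.48 and 10.62 in EV arrays and 10.85, 10.7 and 10.77 in control siRNA arrays (−0.22, SE 0.07, adjusted p = 0.0411 from limma), a call lost without control siRNA replicate 1 (adjusted p = 0.108). PHGDH read 9.04, 9.07 and 8.96 in EV arrays and 9.22, 9.15 and 9.18 in control siRNA arrays (−0.16, SE 0.06, adjusted p = 0.0760 from limma). The PHGDH call was lost when any array but EV replicate 2 was left out, with adjusted p from 0.120 to 0.227. ASNS read 7.07, 7.23 and 7.09 in EV arrays and 7.29, 7.19 and 7.2 in control siRNA arrays (−0.10), and PSPH read 7.86, 7.96 and 7.81 in EV arrays and 7.87, 7.75 and 7.7 in control siRNA arrays (0.10). Both overlapped between groups, and PSAT1 had a change of 0.04.

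**Figure D4:**
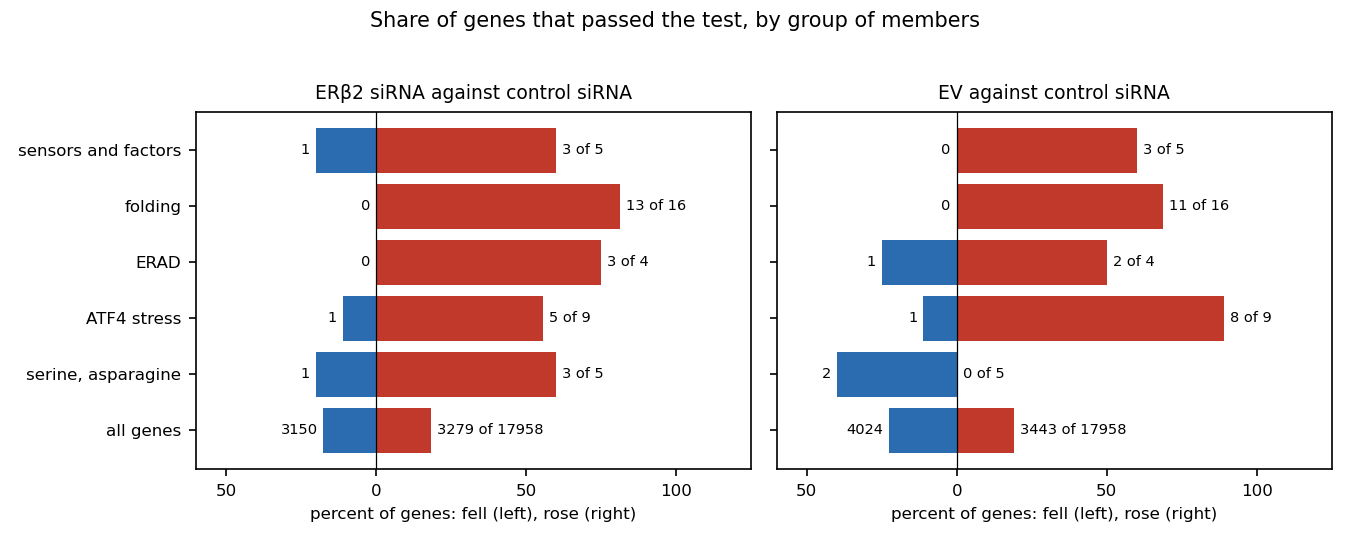
Percent of each list's genes that rose (red, to the right) or fell (blue, to the left) in ERβ2 siRNA against control siRNA (left panel) and in EV against control siRNA (right panel), with the counts beside the bars and all 17958 genes in the lowest row. The folding genes have the longest red bar in the left panel (13 of 16) and the ATF4 stress genes in the right panel (8 of 9), while the synthesis genes have a red bar in the left panel alone.

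The wider lists were counted in EV cells too. Of the 47 further ER genes 19 rose and 6 fell (40.4% and 12.8%, against 19.2% and 22.4% of all genes), with a median of 0.09, and DNAJC1 had the largest rise, 0.82 (SE 0.06). SELENOS, an ERAD component, rose by 0.53 (SE 0.08) and the isomerase gene PDIA5 by 0.44 (SE 0.06), whereas WFS1, an ER membrane protein, had a change of −0.49 (SE 0.08). Of the 23 further ATF4 targets 10 rose and 4 fell (43.5% and 17.4%), with a median of 0.11. GDF15 rose by 2.35 (SE 0.07), the stress regulator gene NUPR1 by 1.96 (SE 0.08), the tryptophanyl-tRNA synthetase gene WARS1 by 1.68 (SE 0.08) and the transporter subunit gene SLC3A2 by 0.84 (SE 0.06). The 4 that fell were CTH (−0.34), PYCR1 (−0.32), CBS (−0.27) and SHMT1 (−0.21). The other tRNA synthetase genes of this list, NARS1 (−0.05) and CARS1 (−0.06), did not pass. Of the 18 genes for eIF2α kinases and partners 2 rose and 7 fell (11.1% and 38.9%), with a median of −0.06. EIF2AK2, the gene of PKR, a kinase that double-stranded RNA activates and interferon induces, read 10.85, 10.7 and 10.84 in EV arrays and 9, 9.2 and 9.08 in control siRNA arrays (1.70, SE 0.08, adjusted p = 1.0e-06 from limma). Its level moved with the ATF4 stress genes in this comparison, and its part in their rise was not tested. With the ERβ2 plasmid against EV no gene of the 3 wider lists passed.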

How the data were processed

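Total RNA was read on Affymetrix Human Gene 1.1 ST arrays. The authors ran RMA in the Affymetrix Expression Console (version not given in the sources used here) and deposited log2 values, rounded to 2 decimals. No log base is stated, and 2 was assumed. The probe annotation gave a single gene symbol to 19181 of 33297 transcript clusters. Each of 17958 genes was read by its brightest such cluster (by the mean over 12 arrays). Fits used limma 3.58.1 under R 4.3.3 (lmFit, then eBayes, no replicate block) on 3 arrays against 3, and their difference on all 12, without a filter on dim genes. Arrays have no read depth, so their number limits the precision. The methods' cut-offs gave the second count (1.5-fold, unadjusted p under 0.05, adjusted p of at most 0.1). The members and lists were chosen with earlier results of these data known. Array values are given for the sensors and factors, for the members of each other list with the largest changes (up to 5 after ERβ2 siRNA and 3 in EV), for the 3 smallest p with the plasmid, and, chosen after their values were seen, for HSPA5, EIF2B2 and EIF2AK2 and for HERPUD1 and DDIT3 with the plasmid. Up to 4 genes that passed were named from each further list. Replicate numbers were not used as pairs in the main fits. The fits were tested on simulated data. Promoters were read from RefSeq (GRCh38.p14). The alternatives are given in the closing section.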

Additional observations from a re-analysis of the deposited data

Results flagged for a closer look

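For 4 members the knockdown effect (ERβ2 siRNA minus control siRNA) and the plasmid effect (ERβ2 plasmid minus EV) differed by 1.5-fold or more in a direct test of the difference with limma. The log2 difference was 1.26 for SDF2L1, 0.86 for DNAJC3, 0.86 for CRELD2 and 0.67 for ERO1A, with adjusted p of 3.5e-06, 1.9e-05, 6.9e-05 and 3.0e-04. All 4 are genes of ER folding, and each passed in 23 of 23 further settings, left-out arrays included. Their plasmid effects were 0.04, −0.01, −0.01 and −0.06 in the same order, so each difference lies close to the knockdown effect of its gene. The 2 experiments also differed in siRNA against plasmid, reagent, plating density and time, which cannot be told apart.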

How the results depend on the processing

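No member that passed changed direction under any of the settings or left-out arrays. After ERβ2 siRNA, the members that rose numbered 27, with 24 (the t-test of the methods with Benjamini-Hochberg adjustment) to 30 over the other settings and 25 to 27 without 1 array. The members that fell numbered 3, but 5 without dim genes, with quantile normalization again, with q-values, with an intensity trend and robust prior, or with 1 fit for all 4 groups. The added falls came from SEL1L, DDIT4 and PPP1R15A, each below 0 and near the threshold. SEL1L made 1 of the 20 folding and ERAD genes fall, in place of 0, in those settings, with cyclic loess and with the replicate block, and 2 ATF4 stress genes fell, in place of 1, in the same 5 settings and with the t-test after Benjamini-Hochberg adjustment. Centring each array on its median turned the split of all genes to 4035 higher and 1968 lower, against 3279 and 3150, and moved the members' median change to 0.34, against 0.28. With the ERβ2 plasmid 0 members rose, but 6 with an intensity trend and robust prior. In EV against control siRNA, members that rose numbered 24, with 23 to 26 over the other settings and 21 to 25 without 1 array. The members that fell numbered 4, with 3 to 5 over the other settings and 2 to 4 without 1 array (2 without control siRNA replicate 1). Of the synthesis genes 2 fell, but 1 after median centring, at an adjusted p under 0.05 or with the replicate block, and 0 to 2 without 1 array. Over the other settings the count reached 3, as ASNS also fell with quantile normalization again (−0.20, adjusted p = 0.0324 from limma) and with q-values. Members with a difference between the knockdown and plasmid effects that passed as higher numbered 20, and 14 to 23 over the other settings, with 14 at an adjusted p under 0.05 and 14 to 19 without 1 array. Same-numbered arrays deviated together with correlations of 0.01 to 0.22 for the siRNA groups, −0.14 to 0.10 for the plasmid groups and −0.24 to 0.12 for the controls. These low values do not settle whether the siRNA arrays were paired. With the replicate block 3437 of all genes were higher and 3454 lower after ERβ2 siRNA, against 3279 and 3150. Of the members 27 rose and 4 fell there, 23 and 3 in EV, and none passed with the ERβ2 plasmid. For the difference 17 members passed as higher and 4 as lower with the replicate block. HSPA5, HERPUD1, ATF6 and CEBPB lost their calls there (adjusted p of 0.122, 0.125, 0.142 and 0.140). The 1 fit for all 4 groups is already the fit of the difference.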
